A study of Rattus norvegicus with 4 samples.

Results

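The genes described here are 34 components, regulators and receptors of the complement system, taken as a list of gene symbols and read in the rat pancreas under 3 iron diets. A probe on the array counted for a gene when the symbol given for it in the deposited comparison tables, or the symbol of its accession where those tables gave none of use, was on that list. All 34 genes had at least 1 probe, 40 probes in total, on an array that carries 19334 named genes. The list was kept in 6 groups by role: the classical pathway, the lectin pathway, the alternative pathway with C3, the terminal components, the regulators and the anaphylatoxin receptors.

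Per the labels, the study fed male Sprague-Dawley rats a diet with 5 ppm iron (iron-deficient, FeD), 35 ppm iron (iron-adequate, FeA) or 20275 ppm iron (iron-overloaded, FeO) for 3 weeks. RNA of the pancreas from 6 rats was pooled for each diet, so that each diet is 1 RNA sample and the variation between rats was not measured. Each of the FeD and FeO pools shared 2 arrays with the FeA pool, labelled with Cy3 and Cy5 in one order on the first array and in the other order on the second. Arrays 1 and 2 compare FeD with FeA, arrays 3 and 4 compare FeO with FeA, and both comparisons share the FeA pool.

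Complement is a set of plasma and cell-surface proteins that act in a cascade of proteases. The classical, lectin and alternative routes of activation meet at the cleavage of C3, which tags surfaces for uptake, and go on through C5 to a pore built from the terminal components, while small fragments of C3 and C5 attract and activate white blood cells. The liver makes most of the circulating proteins, and macrophages, fibroblasts and fat cells make some of them locally. Factor D, encoded by Cfd and also called adipsin, is made mostly by fat cells, and the exocrine pancreas is surrounded by fat tissue.

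Each of the 4 arrays gave 42877 spots of gene probes, from 30367 different probes. The median Cy3 signal was 120, 115, 115 and 121.5 intensity units on arrays 1 to 4, over a median local background of 57, 55, 53 and 50. The median Cy5 signal was 222.5, 189, 205 and 183, over a background of 87, 85, 83 and 82. The share of spots well above background was 65.3%, 61.9%, 63.6% and 66.4% in Cy3 and 71.5%, 66.7%, 71.2% and 68.9% in Cy5. The number of arrays limits the precision of every value here: the 2 arrays of a comparison measure the same pair of pools, so they repeat the measurement and not the experiment, and the calls rest on no test. The median size of the difference between the log2 ratios of a probe on both arrays was 0.22 in FeD over FeA and 0.23 in FeO over FeA, and 95% of probes differed by less than 0.72 and 0.78. Over the 27 complement probes that passed the filter below, the median was 0.24 and 0.28.

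Levels are given as the log2 of the background-corrected signal of a channel, and differences as the log2 ratio of both channels of 1 array, averaged over the 2 arrays of a comparison. A probe passed the filter when it was well above background on both arrays for FeA, for the other diet or for both. Higher or lower calls were made for a gene when the mean log2 ratio of a passing probe was at least 1 in size (a linear fold of 2), or at least 2 for the larger size, with the same sign on both arrays. Levels of different probes are on different scales, so the brightest gene of a list, by its mean level in the FeA channel of both arrays, and the summed level of a list describe signal and do not rank amounts of RNA. The acinar markers among the genes of the pancreas were read first: all 10 of Prss1, Cpa1, Cpb1, Cela1, Cela2a, Pnlip, Cel, Ctrb1, Amy2a3 and Rnase1 passed the filter in FeD over FeA, and Rnase1 read a log2 level of 19.01 in FeA on array 1.

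In each comparison 26 of the 34 genes passed the filter. The genes that passed in neither were Mbl2, Masp2, C8a, C8b, C4bpa, Cd55, Cd46 and C3ar1, and no ratio is given for them. In FeD over FeA, no complement gene was called higher at a log2 ratio of 2, where 0.0191% of the 15734 genes that passed were, and none lower, where 0.089% were. At a log2 ratio of 1, no complement gene was called higher (0.127% of all genes) and none lower (0.248%).

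In FeO over FeA, 8 of the 26 genes were called higher at a log2 ratio of 1, namely C1r, C1s, C2, C4a, C3, Cfb, Cfd and C6, against 0.663% of the 16434 genes that passed. Among those 8, Cfd and C6 were past a log2 ratio of 2, against 0.0608% of all genes. No complement gene was called lower at a log2 ratio of 1 (0.505% of all genes) or 2 (0.134%). The comparison of FeO with FeA asks what a large excess of dietary iron does to the RNA of the pancreas, and that of FeD with FeA asks the same of a shortage. The study reports that FeD and FeO rats weighed less than FeA rats, that FeD rats were anemic and that FeO pancreas held less copper. These traits came with the diets, so their part and that of iron itself cannot be told apart here. The study itself placed Cfd, C6 and C4bpa in a complement activation category of genes past its own limit in FeO. Of these, C4bpa did not pass the filter here and was not called. That category was chosen on these same arrays, so it is not independent evidence.

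Over the 26 complement genes that passed, called or not, the median of the mean log2 ratio was 0.25 in FeD over FeA (0.22 and 0.35 on arrays 1 and 2) and 0.44 in FeO over FeA (0.31 and 0.68 on arrays 3 and 4), while over all genes that passed it was 0.01 in each. In FeD over FeA, 19 of the 26 were higher on both arrays, 2 were lower on both and 5 had opposite signs, while of all 15734 genes that passed, 3973 were higher and 3411 lower on both. In FeO over FeA, 19 were higher on both, 4 were lower on both and 3 had opposite signs, while of all 16434 genes 4616 were higher and 3970 lower on both. Over the 18 complement genes not called in FeO, the median was 0.28 (0.19 and 0.30 on arrays 3 and 4), with 11 higher on both arrays, 4 lower on both and 3 of opposite signs. Both FeD readings lay above all 4 FeA readings for 12 of the 26 genes, against 10.3% of all genes, and below them for Cfd and C5, against 7.87%. Both FeO readings lay above all 4 FeA readings for 18 of the 26, against 12.8% of all genes, and below them for C5 and Clu, against 11.0%. The comparisons share their FeA readings, so these counts do not stand for separate observations. The arrays hold RNA of whole pancreas, in which more or fewer cells of a type and more or less RNA per cell cannot be told apart.

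**Figure D1:**
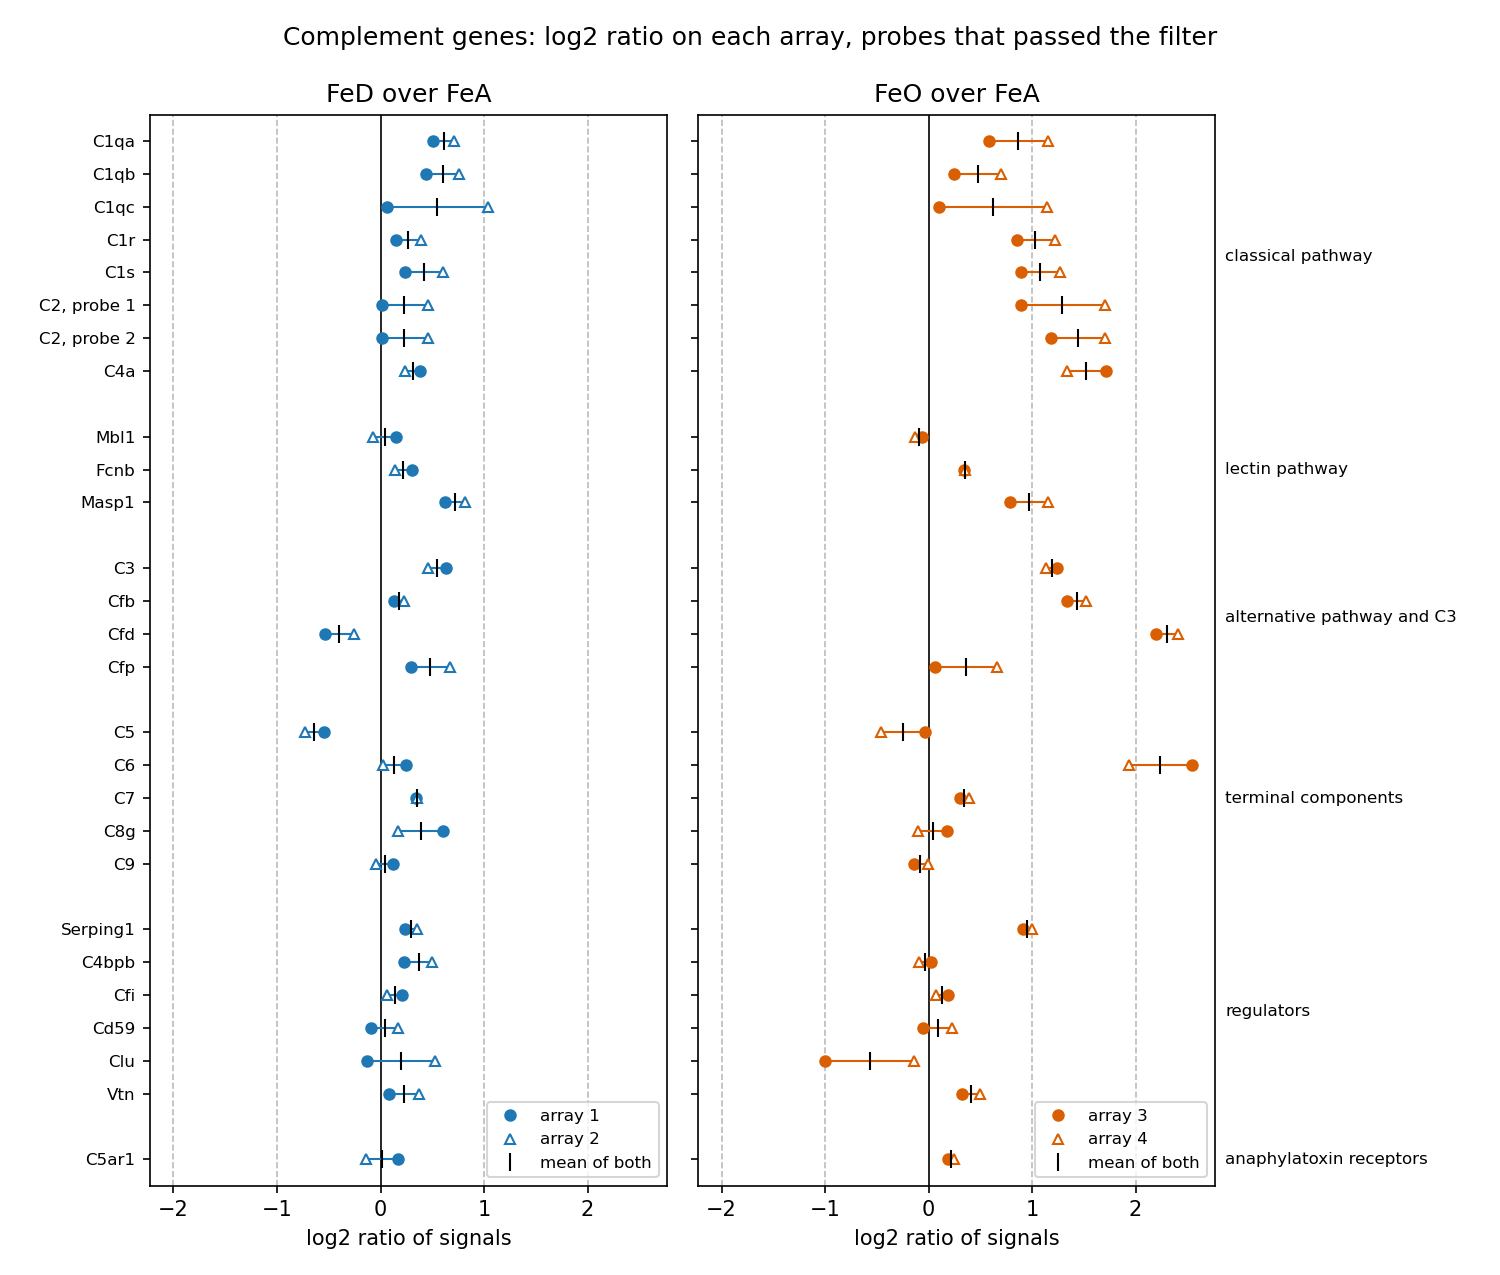
Log2 ratio over FeA (horizontal axis, log2 units) of each complement probe that passed the filter, by role group, for FeD on arrays 1 and 2 and for FeO on arrays 3 and 4, with the mean of both arrays as a bar. No FeD mean reaches 1 in size, while the FeO means of Cfd (2.30) and C6 (2.24) pass 2 and those of C1r, C1s, C2, C4a, C3 and Cfb pass 1.

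**Figure D2:**
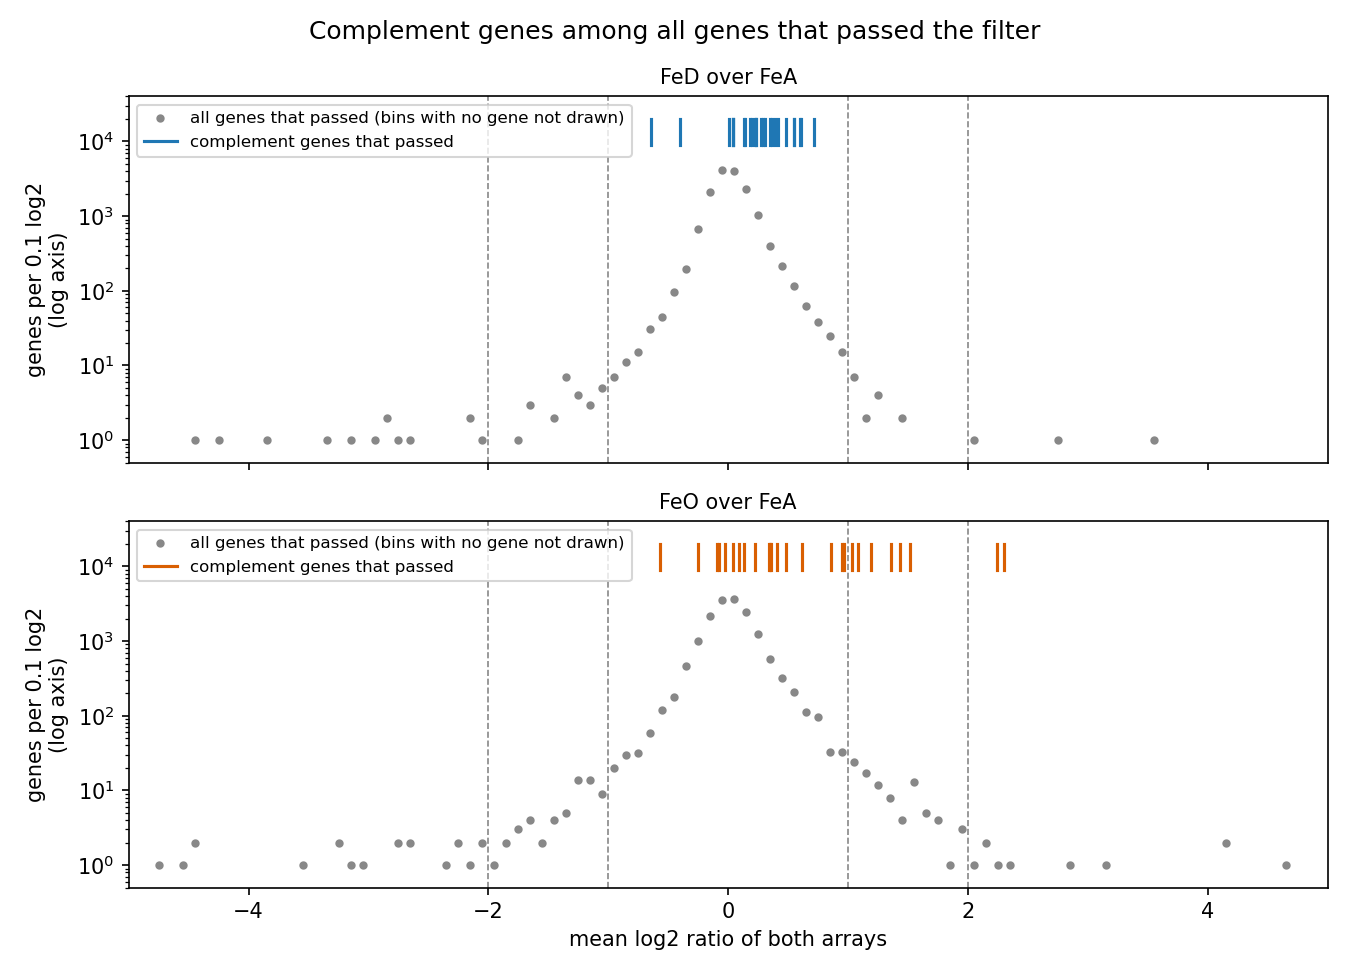
Number of genes in each step of 0.1 of the mean log2 ratio (grey points, log axis), with the mean log2 ratio of the 26 complement genes that passed as ticks, for FeD and FeO over FeA. In FeO, 8 ticks lie past 1, where 109 of 16434 genes were called, and in FeD no tick lies past 1 in size.

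The classical pathway starts with C1, a complex of the recognition protein C1q and the proteases C1r and C1s. C1q is built from the chains encoded by C1qa, C1qb and C1qc, which macrophages express. C1qa read log2 levels of 10.14, 10.01, 9.77 and 9.61 in FeA on arrays 1 to 4, 10.65 and 10.72 in FeD on arrays 1 and 2, and 10.35 and 10.76 in FeO on arrays 3 and 4. C1qb read 11.62, 11.12, 11.66 and 11.36 in FeA, 12.06 and 11.87 in FeD, and 11.92 and 12.07 in FeO. C1qc read 8.64, 8.33, 8.78 and 8.37 in FeA, 8.70 and 9.37 in FeD, and 8.88 and 9.51 in FeO. For C1qa and C1qb, the readings of both other diets lay above all 4 FeA readings, and for C1qc the FeO readings did, whereas 1 FeD reading lay within the FeA range.

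C1qa had a log2 ratio of 0.51 and 0.71 in FeD over FeA (mean 0.61) and 0.58 and 1.15 in FeO over FeA (mean 0.86). C1qb had 0.44 and 0.76 in FeD (mean 0.60) and 0.25 and 0.70 in FeO (mean 0.48). C1qc had 0.06 and 1.04 in FeD (mean 0.55) and 0.10 and 1.14 in FeO (mean 0.62). The 3 chains were thus higher on every array in both diets and none was called, and in each comparison C1qc was near 0 on the first array and past 1 on the second, the one with exchanged dyes. C1qa, C1qc and C1qb are neighbours on the chromosome in that order, with no protein-coding gene between them in the RefSeq annotation.

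C1r encodes the protease that activates C1s when C1q binds. It read 8.93, 8.80, 8.99 and 8.76 in FeA, 9.09 and 9.19 in FeD, and 9.84 and 9.98 in FeO. C1r had a log2 ratio of 0.15 and 0.39 in FeD (mean 0.27) and 0.85 and 1.22 in FeO (mean 1.03), a linear ratio of 2.05. The FeO readings stood clear of the FeA and FeD readings, and the FeD readings lay just above the FeA range.

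C1s encodes the protease that cleaves C4 and C2. Its levels were 9.22, 8.67, 9.15 and 9.01 in FeA, 9.46 and 9.27 in FeD, and 10.04 and 10.28 in FeO. The log2 ratio of C1s was 0.24 and 0.60 in FeD (mean 0.42) and 0.89 and 1.27 in FeO (mean 1.08), a linear ratio of 2.11. As with C1r, FeO was high and did not overlap with FeA or FeD. C1r and C1s lie next to each other on the chromosome. Both were near the limit: on array 3 alone they read 0.85 and 0.89, under a log2 ratio of 1.

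C2 encodes the protease part of the C3 convertase that the classical and lectin routes share, and 2 probes measured it. The first C2 probe read 7.75, 7.51, 7.88 and 7.45 in FeA, 7.77 and 7.96 in FeD, and 8.77 and 9.14 in FeO. The second C2 probe read 7.60, 7.39, 7.81 and 7.52 in FeA, 7.60 and 7.85 in FeD, and 8.99 and 9.22 in FeO. On both probes FeO was high, while FeD overlapped with FeA. In FeO over FeA, the first had a log2 ratio of 0.89 and 1.70 (mean 1.29, a linear ratio of 2.45) and the second 1.18 and 1.70 (mean 1.44, a linear ratio of 2.71). In FeD over FeA, each probe had 0.01 and 0.46 (mean 0.23).

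C4a encodes complement C4, whose larger fragment anchors the convertase to a surface. The rat has a close copy, C4b, and the array has 1 probe for the pair. The deposited tables name that probe C4b and RefSeq names its accession C4a. It is given here as C4a, a choice made after the files were seen, and it cannot tell the copies apart. Without it, 7 complement genes are called higher in FeO at a log2 ratio of 1. The C4a probe read 12.21, 12.24, 11.62 and 12.37 in FeA, 12.58 and 12.48 in FeD, and 13.32 and 13.71 in FeO. C4a had a log2 ratio of 0.38 and 0.24 in FeD (mean 0.31) and 1.71 and 1.34 in FeO (mean 1.52), a linear ratio of 2.87. FeO was clear of the other readings, FeD lay just above FeA, and the FeA reading of array 3 was the lowest of the 4.

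The 7 classical genes all passed the filter and were higher on both arrays in both comparisons. Their median mean log2 ratio was 0.42 in FeD over FeA, with 0.24 on array 1 and 0.60 on array 2. It was 1.03 in FeO over FeA, with 0.85 on array 3 and 1.22 on array 4, and 4 of the 7 were called in FeO.

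The lectin pathway reads sugars on microbes through mannose-binding lectins and ficolins, and cleaves C4 and C2 through the proteases MASP-1 and MASP-2. Masp1, which encodes MASP-1, had 3 probes, of which 1 passed. That probe read 11.46, 11.29, 11.25 and 11.25 in FeA, 12.09 and 12.11 in FeD, and 12.04 and 12.40 in FeO. The passing probe had a log2 ratio of 0.62 and 0.82 in FeD (mean 0.72) and 0.79 and 1.15 in FeO (mean 0.97), a linear ratio of 1.96 that stayed under the limit. Both diets lay above the whole FeA range. The other Masp1 probes were close to background and did not pass. With no filter on dim probes, the mean log2 ratio of Masp1 was 0.24 in FeD and 0.26 in FeO.

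Fcnb encodes ficolin-B, a sugar-binding protein of white blood cells. It read 6.96, 6.80, 6.85 and 6.93 in FeA, 7.25 and 6.94 in FeD, and 7.19 and 7.28 in FeO. Fcnb had a log2 ratio of 0.30 and 0.14 in FeD (mean 0.22) and 0.34 and 0.35 in FeO (mean 0.35). FeO lay above FeA by a small step, and FeD overlapped with it. Mbl1, for a mannose-binding lectin made mainly in the liver, had a mean log2 ratio of 0.04 in FeD and -0.09 in FeO. Mbl2 and Masp2 were not well above background in any diet. The median of the 3 lectin genes that passed was 0.22 in FeD (0.30 and 0.14 on its 2 arrays) and 0.35 in FeO (0.34 and 0.35).

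The alternative pathway amplifies the deposition of C3. C3 itself read 7.39, 7.30, 7.46 and 7.55 in FeA, 8.02 and 7.76 in FeD, and 8.70 and 8.68 in FeO. C3 had a log2 ratio of 0.63 and 0.46 in FeD (mean 0.55) and 1.24 and 1.13 in FeO (mean 1.19), a linear ratio of 2.28. The diets did not overlap: the FeD readings lay above the FeA range and the FeO readings above both.

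Cfb encodes factor B, the protease part of the alternative C3 convertase and the counterpart of C2. Cfb read 10.65, 10.42, 10.59 and 10.63 in FeA, 10.78 and 10.64 in FeD, and 11.93 and 12.15 in FeO. Cfb had a log2 ratio of 0.13 and 0.23 in FeD (mean 0.18) and 1.34 and 1.52 in FeO (mean 1.43), a linear ratio of 2.70. FeO was high and FeD overlapped with FeA. C2 and Cfb are neighbours on the chromosome, and 4 protein-coding genes separate C4a from Cfb.

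Cfd encodes factor D, the protease that cuts factor B once it is bound to C3. Cfd read 12.16, 12.03, 12.24 and 12.04 in FeA, 11.62 and 11.77 in FeD, and 14.44 and 14.45 in FeO. Cfd had a log2 ratio of 2.20 and 2.41 in FeO (mean 2.30), a linear ratio of 4.94, and -0.54 and -0.26 in FeD (mean -0.40). Cfd and C6 had the largest mean ratios of the 26 genes in FeO, and their order depends on the processing: C6 was above Cfd with processed signals (3.02 against 2.35), with an offset of 0 (2.81 against 2.32) and without array 4 (2.54 against 2.20). Cfd was also 1 of 2 complement genes whose FeD readings lay below the whole FeA range, so that its readings stood in the order FeD, FeA, FeO with no overlap.

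Cfp encodes properdin, which holds the alternative convertase together and is made by white blood cells. It read 7.26, 7.10, 7.35 and 7.01 in FeA, 7.55 and 7.78 in FeD, and 7.41 and 7.68 in FeO. Cfp had a log2 ratio of 0.29 and 0.67 in FeD (mean 0.48) and 0.06 and 0.66 in FeO (mean 0.36). Both diets lay above FeA by less than the limit, and the FeO reading of array 3 was within 0.06 of the FeA reading on that array. For the 4 genes of this group the median was 0.33 in FeD (0.21 and 0.35 on its 2 arrays) and 1.31 in FeO (1.29 and 1.33), with 3 called in FeO.

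The terminal components C5 to C9 form the membrane attack complex, a pore. C5 starts it, and read 9.09, 9.24, 9.07 and 9.12 in FeA, 8.54 and 8.51 in FeD, and 9.04 and 8.66 in FeO. C5 had a log2 ratio of -0.55 and -0.73 in FeD (mean -0.64) and -0.03 and -0.46 in FeO (mean -0.25). C5 had the lowest mean ratio of the 26 genes in FeD, short of the limit, and its FeD readings lay below the FeA range. The higher FeO reading, on array 3, lay just under the lowest FeA reading.

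C6 joins C5b and allows C7 to bind. C6 read 7.25, 7.14, 7.19 and 7.15 in FeA, 7.49 and 7.15 in FeD, and 9.73 and 9.09 in FeO. C6 had a log2 ratio of 0.25 and 0.02 in FeD (mean 0.13) and 2.54 and 1.94 in FeO (mean 2.24), a linear ratio of 4.72. FeO stood far above both other diets, which overlapped. On array 4 alone, C6 was just under a log2 ratio of 2. The next complement gene on that chromosome, C7, is 1 protein-coding gene away from C6 and had a mean log2 ratio of 0.35 in FeD and 0.34 in FeO.

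C8g encodes the chain of C8 that belongs to the lipocalin family. It read 7.53, 7.66, 7.05 and 7.58 in FeA, 8.13 and 7.83 in FeD, and 7.23 and 7.48 in FeO. C8g had a log2 ratio of 0.60 and 0.17 in FeD (mean 0.39) and 0.18 and -0.10 in FeO (mean 0.04). FeD lay above FeA, and FeO overlapped with it. C9, whose copies line the pore, had a mean log2 ratio of 0.04 in FeD and -0.08 in FeO. C8a and C8b, for the other chains of C8, did not pass. In the comparison of FeD with FeA, C8b was well above background on 1 array for FeD and on 1 for FeA. The median of the 5 terminal genes that passed was 0.13 in FeD (0.25 and 0.02 on its 2 arrays) and 0.04 in FeO (0.18 and -0.01), so C6 stood apart within its group.

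**Figure D3:**
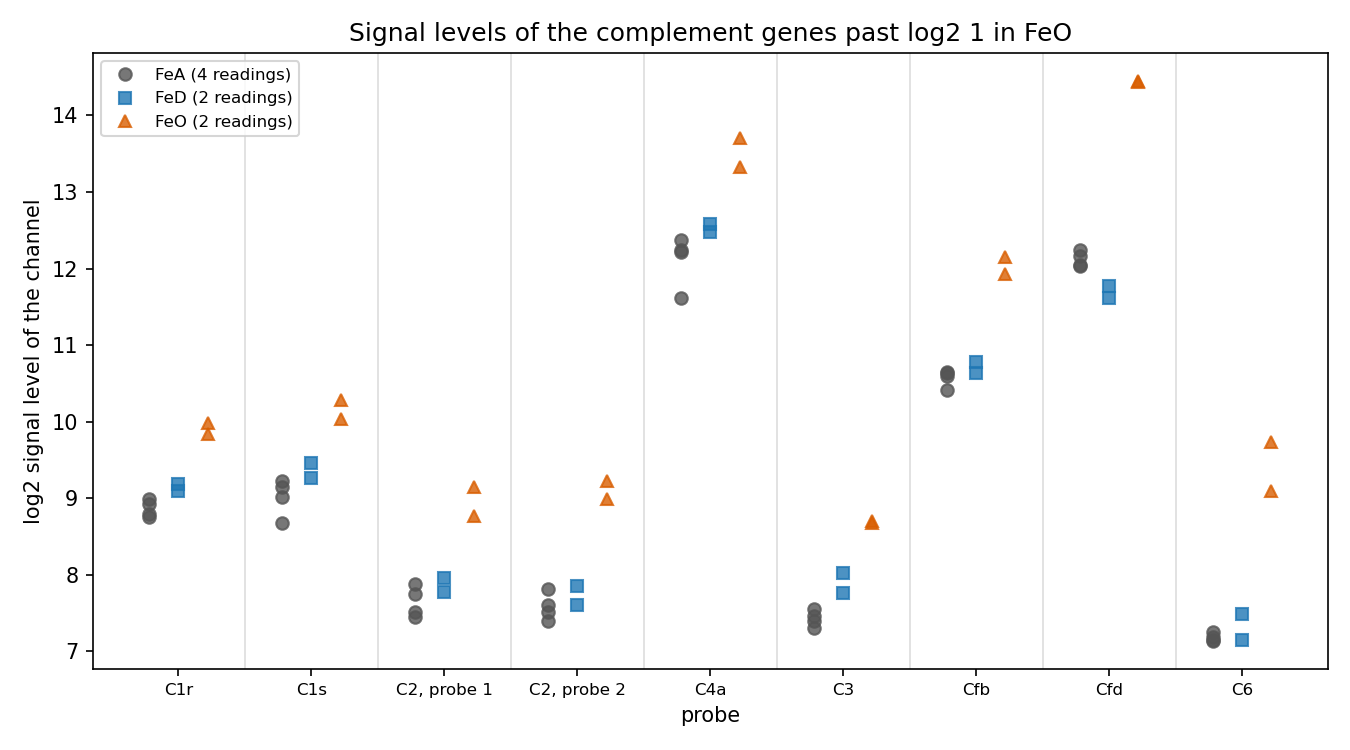
Log2 signal level (vertical axis) of each probe of the 8 complement genes past a log2 ratio of 1 in FeO, in FeA (4 readings), FeD (2 readings) and FeO (2 readings). The FeO readings lie above all FeA and FeD readings for each of the 9 probes, and Cfd is the gene of these whose FeD readings (11.62 and 11.77) lie below FeA.

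Regulators limit the cascade in plasma and on the body's own cells. Serping1 encodes the C1 inhibitor, which blocks C1r, C1s and the MASP proteases. Serping1 read 10.64, 10.49, 10.83 and 10.39 in FeA, 10.88 and 10.84 in FeD, and 11.74 and 11.39 in FeO. Serping1 had a log2 ratio of 0.24 and 0.35 in FeD (mean 0.29) and 0.91 and 1.00 in FeO (mean 0.95), a linear ratio of 1.94. FeO lay clear of FeA, and the mean was 0.05 short of the limit that C1r and C1s passed. FeD lay narrowly above the FeA range.

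Clu encodes clusterin, a secreted protein that keeps the terminal complex out of membranes. It read 14.25, 14.06, 14.34 and 14.13 in FeA, 14.11 and 14.59 in FeD, and 13.34 and 14.00 in FeO. Clu had a log2 ratio of -0.13 and 0.53 in FeD (mean 0.20) and a mean of -0.57 in FeO, with -0.14 on array 4 and the rest from array 3, where the FeO level of 13.34 stood beside an FeA level of 14.34. Clu had the lowest mean ratio of the 26 genes in FeO, but without array 3 C5 was lower (-0.46 against -0.14). Both FeO readings of Clu lay below the FeA range. The FeD readings overlapped with FeA.

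Among the other regulators that passed, Vtn, for vitronectin, had a mean log2 ratio of 0.23 in FeD and 0.41 in FeO. C4bpb, for the beta chain of C4b-binding protein, had 0.37 and -0.03. Cfi, for the protease factor I that cuts C3b and C4b, had 0.14 and 0.13. Cd59, for the surface protein that stops C9 from joining the pore, had 0.04 and 0.09, from a probe whose accession RefSeq names Cd59b. The median of the 6 regulators that passed was 0.21 in FeD (0.15 and 0.36 on its 2 arrays) and 0.11 in FeO (0.11 and 0.15).

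The regulators C4bpa, Cd55 and Cd46 did not pass. C4bpa, for the alpha chain of C4b-binding protein, was well above background in FeO on 1 of 2 arrays and in FeA on neither. Cd55 encodes a protein that breaks up C3 convertases, and no probe of it was well above background on both arrays in any diet. Cd46, for a cofactor of factor I, was not well above background in any diet.

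The anaphylatoxin receptors bind the small fragments of C3 and C5. C5ar1 read 6.58, 6.71, 6.58 and 6.38 in FeA, 6.75 and 6.56 in FeD, and 6.77 and 6.62 in FeO. C5ar1 had a log2 ratio of 0.17 and -0.14 in FeD (mean 0.01) and 0.19 and 0.25 in FeO (mean 0.22). These readings overlapped, close to background. C3ar1 was not well above background in any diet, so no difference was detectable for it.

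For 5 of the 8 genes called higher in FeO, the RefSeq table on the build GRCr8 holds a promoter, a window of 300 bases that spans the start of the gene. They are shown because these genes were higher together. Their places are chr4:159098763-159099062 on the plus strand for C1r, chr20:4010107-4010406 on the plus strand for C4a, chr9:2201290-2201589 on the minus strand for C3, chr7:10465447-10465746 on the minus strand for Cfd and chr2:55573383-55573682 on the plus strand for C6. C1s, C2 and Cfb have no entry. Capitals mark each match to 1 of 5 motifs, searched on both strands: the C/EBP type TTGCNNAA, the STAT type TTCNNNGAA, the interferon response type (TTTC, any 2 letters, TTTC), the NF-kB type (GGG, any 2 letters, TTTCC) and the E-box CACGTG.
C1r: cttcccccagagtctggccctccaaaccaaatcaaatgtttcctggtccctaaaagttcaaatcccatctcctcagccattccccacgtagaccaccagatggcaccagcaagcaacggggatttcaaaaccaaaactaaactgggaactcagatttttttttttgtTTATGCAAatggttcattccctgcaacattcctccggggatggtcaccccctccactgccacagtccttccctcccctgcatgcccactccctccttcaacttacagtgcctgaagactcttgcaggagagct
C4a: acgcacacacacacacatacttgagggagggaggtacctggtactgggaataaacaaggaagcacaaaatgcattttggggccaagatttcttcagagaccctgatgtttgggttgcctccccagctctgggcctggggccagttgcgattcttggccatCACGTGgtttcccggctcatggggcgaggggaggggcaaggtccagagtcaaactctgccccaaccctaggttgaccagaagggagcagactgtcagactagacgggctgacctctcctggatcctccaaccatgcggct
C3: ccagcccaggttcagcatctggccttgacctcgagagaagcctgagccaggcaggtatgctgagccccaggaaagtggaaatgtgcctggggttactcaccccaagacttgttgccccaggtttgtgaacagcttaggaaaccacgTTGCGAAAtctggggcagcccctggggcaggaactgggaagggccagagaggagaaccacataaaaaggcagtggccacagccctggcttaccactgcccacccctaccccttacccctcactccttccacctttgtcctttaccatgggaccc
Cfd: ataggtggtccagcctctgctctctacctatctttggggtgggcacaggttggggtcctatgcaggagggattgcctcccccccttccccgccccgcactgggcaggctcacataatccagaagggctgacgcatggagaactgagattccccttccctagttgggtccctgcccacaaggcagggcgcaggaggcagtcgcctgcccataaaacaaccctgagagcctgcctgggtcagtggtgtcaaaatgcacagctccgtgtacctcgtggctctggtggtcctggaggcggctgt
C6: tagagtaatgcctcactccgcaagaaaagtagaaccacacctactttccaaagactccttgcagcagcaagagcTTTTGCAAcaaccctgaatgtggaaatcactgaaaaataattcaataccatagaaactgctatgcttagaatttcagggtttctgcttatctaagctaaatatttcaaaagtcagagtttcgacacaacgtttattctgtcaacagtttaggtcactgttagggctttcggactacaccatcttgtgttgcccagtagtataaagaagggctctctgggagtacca

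The C/EBP type letters were in the promoters of C1r, C3 and C6, and in 7 of the 22 complement genes with an entry, against 10.6% of all 33469 promoters of that length. In C1r and C6 they lie on the opposite strand, as TTATGCAA and TTTTGCAA, and in C3 they read TTGCGAAA. The E-box was in the promoter of C4a and in 2 of the 22, against 6.42% of all. No 2 of these motifs overlap in the 5 windows. The STAT type was in 4 of the 22 and in none of the 5, against 8.87%. The NF-kB type was in 1 of the 22, C3ar1, against 1.53%, and the interferon response type was in none, against 3.92%. The promoter of Cfd held none of the 5 motifs. A match is a description of letters, not a binding site or a cause, and a missing match says only that those letters are not in the window.

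Of 25 further complement genes, listed as the rest of the pathway, 19 were on the array and 9 passed in each comparison. None was called at a log2 ratio of 1 in either comparison, and their median was 0.30 in FeD and 0.07 in FeO. Fcna, for ficolin-A, came closest in FeD, with a mean of 0.93 that rests mostly on array 2 (0.45 on array 1). It had -0.34 and 0.48 in FeO. Cd93, a surface protein once taken for a C1q receptor, had a mean log2 ratio of 0.30 in FeD and 0.57 in FeO. Fcna and Cd93 were named after their values were seen.

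Several complement genes are also acute phase genes, whose output rises in inflammation, so a list of 18 other genes of that response was read beside them. In FeD 9 passed and none was called, and in FeO 13 passed and 1 was called higher. That gene was Lcn2, for an iron-scavenging lipocalin, with a log2 ratio of 0.78 and 1.51 in FeO (mean 1.15) and 0.52 and 0.80 in FeD (mean 0.66). The median of the list was 0.22 in FeD and 0.24 in FeO. Hp, for haptoglobin, had 0.67 and 0.31 in FeO, with FeA well above background on 1 of 2 arrays. Cebpb and Cebpd, for transcription factors of the C/EBP family, had mean log2 ratios of 0.65 and 0.66 in FeO and 0.34 and 0.67 in FeD. Il6 and Ifng, which encode cytokines that raise complement genes in many cells, were not well above background on enough arrays to pass. The part of this response in the complement result was not tested.

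**Figure D4:**
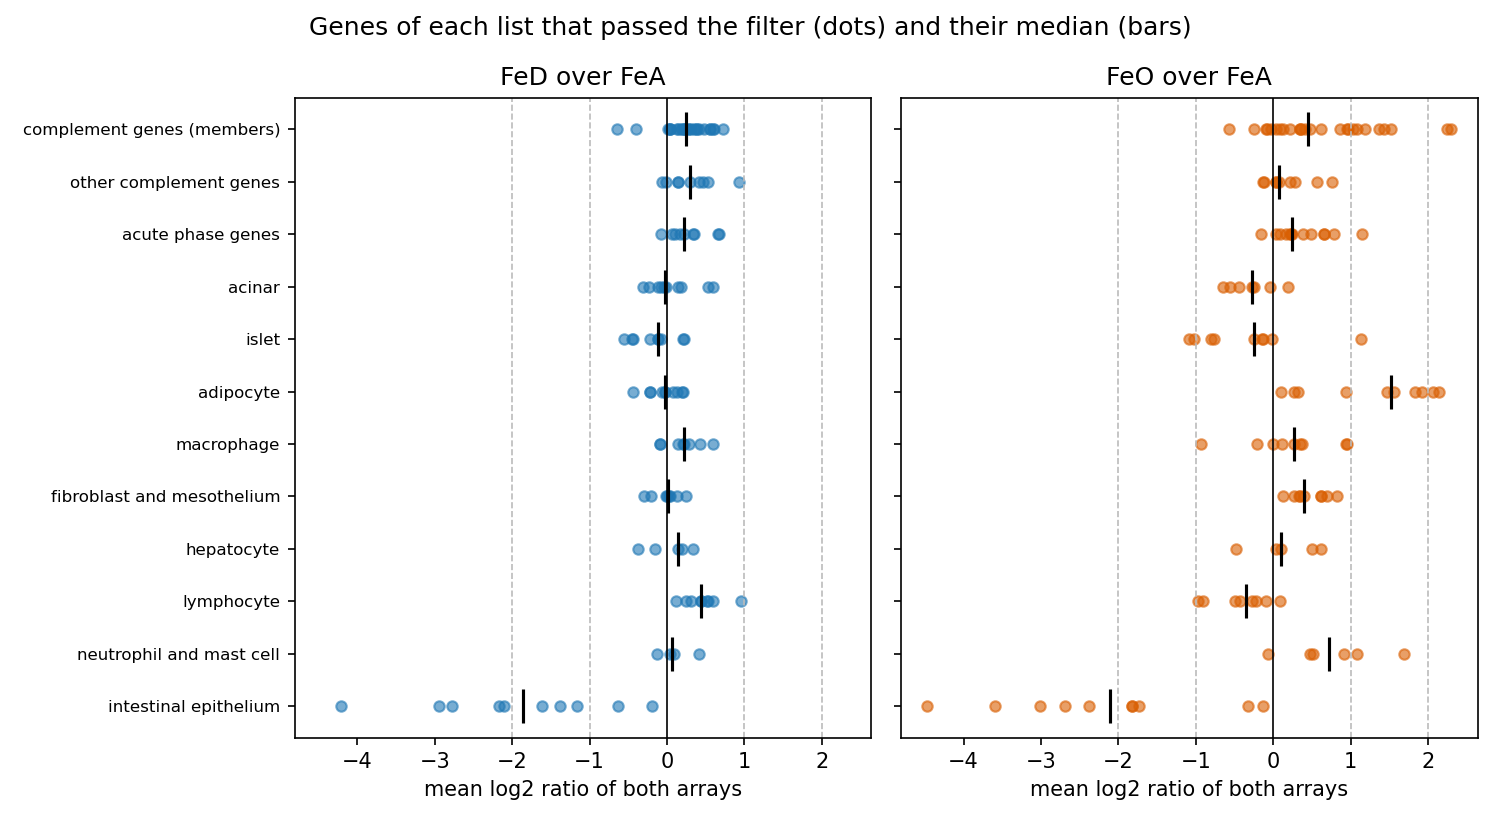
Mean log2 ratio (horizontal axis) of each gene that passed the filter, as dots, and the median, as a bar, for the complement genes, 2 pathway lists and 9 lists of cell markers, in FeD and FeO over FeA. In FeO, the adipocyte list has the highest median (1.51) and the intestinal list the lowest (-2.10).

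Markers of the cell types in and around the pancreas were read for the same arrays, since complement genes differ in the cells that make them. On the adipocyte list of 12 genes, 10 were on the array and all 10 passed. Of these 10, 9 were higher on both arrays in FeO and 7 were called higher: Adipoq, Cidec, Cidea, Fabp4, Retn, Car3 and Pparg, with Adipoq (1.97 and 2.17, mean 2.07) and Car3 (2.04 and 2.25, mean 2.14) past a log2 ratio of 2. Cidea was called by 1 of its 2 probes. The median of the list was 1.51 in FeO and -0.03 in FeD. Its summed level was 19800 and 18800 in FeO on arrays 3 and 4 and 8270 and 7820 in FeA on the same arrays, and 7650 and 6210 in FeD beside 8190 and 6350 in FeA on arrays 1 and 2. Lep, for leptin, the brightest gene by mean level in the FeA channel, had -0.11 and 0.31 in FeO. Adipoq was brighter than Lep in the FeO channel on both arrays (12.36 and 12.37 against 11.35 and 11.74). Lep read 11.53, 10.07, 11.46 and 11.43 in FeA on arrays 1 to 4, although these are 1 pool. On array 2, Fabp4 (10.78) and Adipoq (10.08) were brighter than Lep in FeA. Plin1 and Plin4 were not on the array. Cfd, which is not on that list, had 2.20 and 2.41. The part of fat tissue in the complement result was not tested. Some genes of that list, such as Fabp4, Pparg and Lpl, are expressed in other cells too, and the study listed Adipoq from these arrays.

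On the macrophage list, 9 of 10 genes passed in FeO and 8 in FeD, and none was called. The median was 0.27 in FeO and 0.22 in FeD. Lyz2, its brightest gene, had 0.19 and -0.62 in FeO and 0.86 and 0.33 in FeD. Cd163, Cd14 and Marco had mean log2 ratios of 0.95, 0.94 and -0.93 in FeO, and Cd68 had 0.27, so the list did not move one way. Mrc1 did not pass. The summed level was 5570 and 9100 in FeO on arrays 3 and 4 and 4750 and 12100 in FeA. On arrays 1 and 2 it was 16400 and 14100 in FeD and 9810 and 11500 in FeA. Lyz2 read 12.87, 13.14, 11.19 and 13.21 in FeA on arrays 1 to 4, so the FeA sum was low on array 3 and the sums of FeO and FeA differ in direction between arrays 3 and 4.

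On the list of fibroblast and mesothelium genes, 9 of 10 were on the array. In FeO all 9 passed, 8 were higher on both arrays and 1 was called, Wt1, on 1 of 3 probes at 1.43 and 0.79, with FeA well above background on 1 of 2 arrays. The median was 0.40 in FeO and 0.01 in FeD. Col3a1, the brightest, had 0.51 and 0.87 in FeO, and the summed level was 22100 and 22600 in FeO and 16600 and 14200 in FeA. In FeD it was 13700 and 15000, beside 15300 and 14500 in FeA.

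On the hepatocyte list, 5 of 10 genes passed, namely Alb, Ttr, Serpina1, Tf and F2, and Apoa2, Apoh, Ahsg, Fgb and Cyp2c11 did not. None was called, and the median was 0.10 in FeO and 0.14 in FeD. Tf, the brightest, had 0.88 and 0.11 in FeO, and Alb had 0.68 and 0.56. Ttr had -0.24 and -0.72 in FeO, Serpina1 -0.23 and 0.28, and F2 0.10 and 0.09, so this list went both ways. The summed level was 9620 and 7280 in FeO and 6630 and 6680 in FeA, and 7760 and 6140 in FeD beside 6590 and 7100 in FeA. Fgb is on the acute phase list too.

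On the lymphocyte list, the median was -0.35 in FeO over 8 genes and 0.44 in FeD over 9, and none was called. Cd3d, the brightest, had -0.42 and -0.44 in FeO and 0.66 and 0.41 in FeD. The summed level was 1630 and 1900 in FeO and 2460 and 2540 in FeA, and 3860 and 3680 in FeD beside 2660 and 2420 in FeA. Cd79a was not on the array and Ms4a1 did not pass in FeO. On the list of neutrophil and mast cell genes, the median was 0.72 in FeO over 6 genes and 0.07 in FeD over 4. The mast cell proteases Cma1 (mean 1.69) and Tpsb2 (mean 1.08) were called higher in FeO, and the study listed both from these arrays. The neutrophil markers S100a8, Elane and Csf3r did not pass, and neither did the mast cell receptor chain Ms4a2. S100a9, another neutrophil marker, passed in FeO over FeA alone, and only through its FeO readings. It was at least 1.32-fold higher in FeO than in FeA. The summed level was 1590 and 1650 in FeO and 948 and 1010 in FeA, and 689 and 561 in FeD beside 612 and 505 in FeA. In the FeA channel the brightest gene was Mpo on arrays 3 and 4 and Kit on arrays 1 and 2, with mean log2 ratios of -0.07 in FeO and 0.41 in FeD. Mpo read 6.32, 6.35, 8.24 and 8.29 in FeA on arrays 1 to 4, although these are 1 pool, and it did not pass the filter in FeD over FeA. In the FeO channel Cma1 (8.65 and 8.69) was brighter than Mpo (8.21 and 8.18).

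The acinar list had a median of -0.28 in FeO and -0.03 in FeD, with none called. In FeO 7 of its 10 genes passed, because the spots of Prss1, Cpa1 and Cela2a on array 4 were marked as outliers by the scanner software. Of the 11 acinar probes, 5, 6, 6 and 4 had a saturated spot on arrays 1 to 4, so the ratios and sums of this list are limited at the top of the range, while none of the 40 complement probes had one. For that reason no brightest gene is named for it. Pnlip had -0.21 and -0.67 in FeO, and Rnase1 had a mean of 0.18 in FeD. The summed level of the list was 2460000 and 2470000 in FeO and 2800000 and 3110000 in FeA, and 4170000 and 4090000 in FeD beside 3820000 and 3960000 in FeA. The islet list had a median of -0.25 in FeO and -0.12 in FeD over 9 genes. Gcg was called higher in FeO (mean 1.14), and Ppy (-1.26 and -1.13 on 1 of 2 probes) and Iapp (-0.85 and -1.19) were called lower. Ins1, the brightest, had -1.09 and -0.53 in FeO and -0.58 and -0.30 in FeD. The summed level of the islet list was 121000 and 138000 in FeO and 240000 and 208000 in FeA, and 153000 and 165000 in FeD beside 227000 and 194000 in FeA.

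A list of intestinal epithelium genes was read on the same arrays. All 10 genes passed, 8 were called lower in each comparison and 5 were past a log2 ratio of -2 in each, with a median of -1.86 in FeD and -2.10 in FeO. Fabp1, the brightest, had -4.69 and -3.74 in FeD, where it was well above background on 1 of 2 arrays. In FeO it was at background on both arrays, and at least 21.8-fold lower than in FeA. In FeO 5 of the 10 genes had such a bound, as 2 did in FeD, and with these genes at their bounds the medians are the same. The 8 genes called lower in each comparison were Fabp1, Fabp2, Apoa1, Lgals4, Tff3, Cdh17, Guca2a and Krt20, of which the first 5 were past -2. Tff3 had a mean log2 ratio of -2.10 in FeD and -2.38 in FeO, Guca2a -1.38 and -1.83, and Krt20 -1.16 and -1.74. The brighter probe of Lgals4 had -2.11 in FeD and -3.60 in FeO. Apoa1 had -2.94 in FeD and Cdh17 -1.61, although on 1 array of the pair the FeD reading of each was not clear of background, and their bounds in FeO were 7.95-fold and 3.54-fold. The bound for Fabp2 was 6.76-fold in FeD, with 6.32-fold in FeO. The study listed Fabp1, Fabp2 and Apoa1 from these arrays, and reports that its quantitative PCR did not detect them in pancreas. The summed level was 1740 and 1970 in FeD beside 7280 and 7050 in FeA, and 1350 and 1500 in FeO beside 7310 and 7040 in FeA. For none of the lists of markers was its part in the complement result tested.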

How the data were processed

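RNA pools of 6 rats per diet were measured on 4 two-colour arrays of 1 slide. Per the file headers, the deposited array files hold intensity values from Agilent Feature Extraction 10.1.1.1: median spot and background intensity of each dye, and a processed intensity that the software had detrended and dye-normalised. The deposited comparison tables were used for gene symbols alone. Their 8 columns of fold changes, p and q values are the authors' own comparison and were not used.

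In R 4.3.3 with limma 3.58.1, background was subtracted by normexp with an offset of 50, ratios were loess-normalised within each array, control spots and outlier spots were left out, and spots of a probe were averaged after turning the dye-swapped ratios. For the channel levels alone, the mean log2 signal of both channels was also quantile-scaled between the 4 arrays. Median signals were used because the files hold no mean signals, a choice made after the files were seen. Tables and figures were made with Python 3.11.15, pandas 2.3.3, numpy 2.4.6 and matplotlib 3.10.9. A probe counted as well above background on an array when over 0.5 of its spots were marked so by the software. The pipeline was checked on made-up differences. No test was used for the calls, because each diet is 1 pool, and tests were tried as alternatives. Calls rest on size and on the same sign on both arrays, and a gene was called when any passing probe passed and none passed the other way. Where 1 diet was at background, the bound given sets the other diet, on each array, against the higher of the probe's own reading and the lowest level well above background in that channel.

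The deposited tables named 22919 probes, the RefSeq symbol of the accession named 26 more, and 7422 of 30367 had neither and were counted by their own identifier. A listed gene without a probe in the tables took a probe whose accession RefSeq gives to it, which renamed 7 probes. Of the 40 complement probes, 36 had an accession in the RefSeq table, 35 with the symbol used here.

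The members and lists were chosen with earlier results of these data known. Values per array are given for each complement gene past a log2 ratio of 1 in either comparison, for the next 2 of each group by size, and for the C1q chains, C3 and C5ar1, of those that passed. From each marker list but the acinar one, the brightest gene in the FeA channel and those past a log2 ratio of 1 were named, and a few others as said.

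Alternatives changed 1 choice at a time: the background correction, the processed intensity, the normalisation within and between arrays, outlier spots, the filter, the probes of a gene, each array left out, added tests and the source of gene names.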

Additional observations from a re-analysis of the deposited data

How the results depend on the processing

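The direction of every complement value that was called held under each alternative that gave a value. Among values not called, it changed under at least 1 alternative for Mbl1, C9, Cd59, Clu and C5ar1 in FeD. In FeO it changed for C8g, C4bpb and Cd59. Signal over background limits the 8 genes that did not pass, and dim genes such as C5ar1. Array number limits the rest.

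In FeO over FeA, the number called higher at a log2 ratio of 1 was 8, and it was 10 with median centring in place of loess, which added Masp1 and Serping1. Leaving out 1 array of the pair gave a range of 6 to 12: without the first array 12 were called, adding C1qa, C1qc, Masp1 and Serping1, and without the second 6, losing C1r and C1s. With 1 array the rule of the same sign is always met. The share of all genes called is given for the main values alone, so counts under the alternatives have none to be read against. At a log2 ratio of 2 that range was 1 to 2, with C6 under the limit without the first array. The number lower at a log2 ratio of 1 ranged from 0 to 1, the 1 being Clu without the second array. In FeD over FeA, the number higher at a log2 ratio of 1 ranged from 0 to 1, the 1 being C1qc without the first array.

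With the t-test of the methods added after Benjamini-Hochberg, 0 were called higher in FeO at a log2 ratio of 1 and 0 at 2. With that test at the study's p threshold and no correction, 7 were called at a log2 ratio of 1, losing C4a, and 2 at a log2 ratio of 2. With limma's moderated test added, 6 and 2 were called, losing C1r and C1s. These tests treat repeat arrays of 1 pair of pools as replicates, so they say nothing about differences between rats. With the tables' symbols alone 7 were called, without C4a; that alternative and the one with RefSeq symbols first were chosen after seeing the data.

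Of 52 single-gene values, 13 moved by more than the spread of both arrays with the processed intensity, which gave the highest values of C6 (3.02) and C3 (1.73). With an offset of 0, 8 moved. Quantile scaling between arrays left ratios within an array as they were. The median of all genes shifted to 0.03 at most. No paired analysis was possible because each pair of channels is 1 pair of pools, and every ratio is already taken within an array. The alternative with the array files' own gene names was not run, as the files hold no such column.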
